A study of Paxillus involutus with 12 samples.

Results

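The ends of a carbon starvation course were compared in mycelium of Paxillus involutus, strain ATCC 200175: the 3 arrays titled day 13 against the 3 arrays titled day 2, which are 6 of the 12 arrays in the series. Both groups carried the same strain and treatment and differed by the length of incubation. The fungus was grown axenically, that is without a host plant or any other organism, on glass beads under a minimal Melin-Norkrans medium, was kept without nitrogen for a day, and was then held on the same kind of medium, its C/N ratio set to 3 by added ammonium, as the labels describe. Each array carries RNA from its own pool of a pair of cultures, so the spread within a day includes differences between cultures. The arrays of days 6 and 8 show the path between the ends. They also enter the estimate of the spread between arrays that the tests of the end comparison use. All 12214 sequences with a paxillus number entered the comparison, and the random-sequence control was left out of it. No cultures of the same ages with a carbon supply are among the samples, so the length of starvation and the age of the culture cannot be told apart.

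Paxillus involutus is an ectomycorrhizal fungus: it sheathes the fine roots of trees and lives largely on sugars that the tree delivers, in return for nitrogen and phosphorus from the soil. When carbon runs out, filamentous fungi are known to slow growth and to break down their own contents and cell walls, through autophagy, in which portions of the cytoplasm are enclosed in membranes and carried to the vacuole for digestion, and through secreted or vacuolar proteases and chitinases. The deposited files give the array sequences numbers only, and 0 of these numbers occur in the reference table of 18033 genes of this strain (assembly GCA_000827475.1). Which of the sequences below belong to autophagy, proteases or any other pathway is therefore not said here, the identity of the mycelium was not checked against marker genes, and several sequences can stem from the same gene.

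The values are log2 expression values that the authors made with RMA, a method that corrects the background, gives all arrays nearly the same distribution and combines the probes of a sequence. A change shared by all messengers is removed by that step, so every difference here is relative to the other sequences. The array medians of the 6 arrays lay between 11.35 and 11.37, and the control, made of 10000 random probes, between 4.55 and 4.70 on the log2 scale. The control averaged 4.65 ± 0.05 (SD, n = 3) at day 2 and 4.60 ± 0.07 at day 13 (exact permutation test, two-sided, p = 0.3, where 0.1 is the smallest p that 3 arrays against 3 can give). Across sequences, arrays correlated at r = 0.989 to 0.995 within day 2, at 0.992 to 0.993 within day 13, and at 0.928 to 0.943 between the days. Day 13 array 2 had the highest correlations with day 2, 0.930 to 0.943, and day 2 array 1 the lowest within its day, 0.989 to 0.993. The arrays of a day lie side by side on the chip, so position and day cannot be told apart.

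Most measured transcripts differed between day 2 and day 13, and most of the differences were small. A sequence was called at an adjusted p under 0.05 in limma (1 mean per day over all 12 arrays, Benjamini-Hochberg over all sequences). The called sequences made up 65.8% of all, with 34.4% higher and 31.4% lower at day 13. The 4201 rises had a median log2 difference of 0.60, or 1.51-fold, and the 3839 falls one of -0.62, or 1.54-fold lower. Of the 8040 calls, 6136 (76.3%) were under 2-fold and 3804 (47.3%) under 1.5-fold. In 7369 of them the ranges of the day 2 and day 13 arrays did not touch, and in 671 they overlapped. Over all sequences, called or not, 63.4% had groups that did not overlap. The middle 50% of sequences lay between differences of -0.38 and 0.42, the 5th and 95th percentiles were -1.33 and 1.19, and the median over all sequences was 0.03. With the 6 end arrays alone, 3570 sequences were called higher and 3357 lower, against 4201 and 3839 over all 12 arrays.

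**Figure D1:**
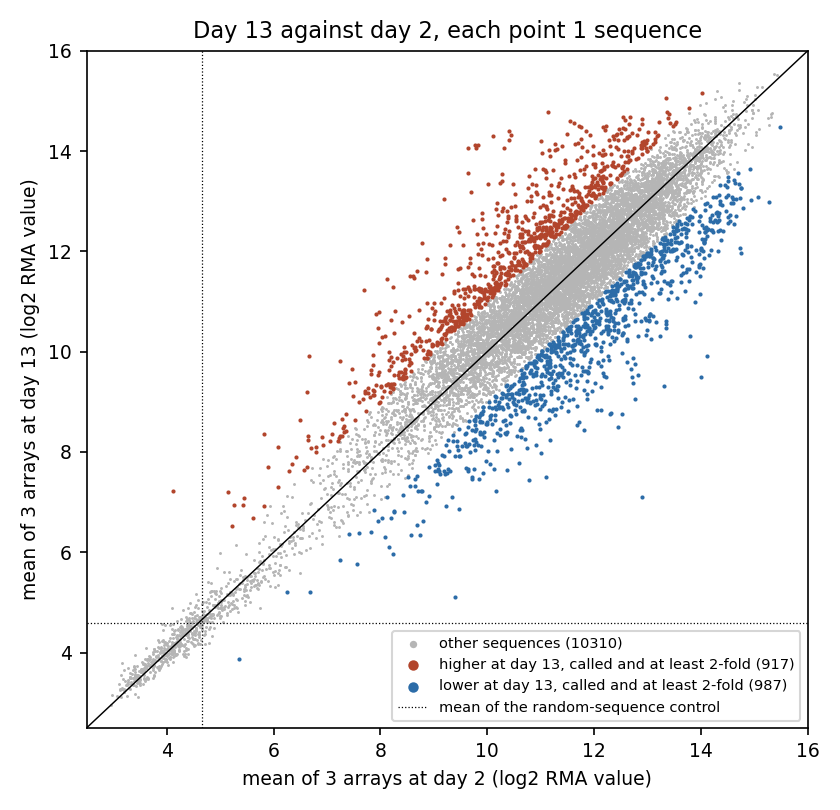
Mean log2 RMA value of each of 12214 sequences at day 2 (horizontal axis, 3 arrays) and at day 13 (vertical axis, 3 arrays); the line marks equal values and the dotted lines the control. The 917 called rises of 2-fold or more lie above the line, the 987 called falls of that size below it, and nearly all of both groups are well clear of the control on both axes.

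Called changes with an estimate of 2-fold or more took in 15.6% of all sequences, 7.51% as rises and 8.08% as falls. An estimate of 2-fold does not show that the change exceeds 2-fold. When a change beyond 2-fold was itself the question (limma treat), 403 sequences (3.3%) passed as higher and 577 (4.72%) as lower. Falls beyond 2-fold thus outnumbered rises in this test, while beyond 4-fold the numbers were 51 higher (0.418%) and 46 lower (0.377%). With the 6 end arrays alone, 329 were higher and 484 lower beyond 2-fold, and 40 and 36 beyond 4-fold. At the other end, 1745 sequences (14.3%) had a 95% interval of the difference that lay wholly within 0.32 of 0 on the log2 scale, which bounds their change relative to the other sequences. Of these, 1727 were not called and 18 were called, with differences that were small but exceeded their error. Of the 4174 sequences that were not called, 2447 had intervals reaching beyond 0.32 in at least 1 direction, so for them neither a change nor its absence was shown. The median distance from the estimate to either end of the interval was 0.23 on the log2 scale among uncalled sequences, or 1.17-fold.

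The rises with the firmest size were those of paxillus_10215 and paxillus_9708, ranked by the end of the 95% interval nearest to 0. paxillus_10215 read 10.04, 10.09 and 10.19 on the day 2 arrays and 14.30, 14.37 and 14.23 on the day 13 arrays. The lowest day 13 array stood 4.05 above the highest day 2 array. The log2 difference was 4.19 ± 0.16 (SE), or 18.3-fold, with an interval of 3.85 to 4.54 (limma adjusted p = 2.68e-09). paxillus_9708 read 10.29, 10.48 and 10.42 at day 2 and 14.56, 14.29 and 14.34 at day 13. Its difference was 3.99 ± 0.12, or 15.9-fold, with an interval of 3.73 to 4.26 (limma adjusted p = 8.14e-10). The day means of these 2 sequences lay near the day 2 level through day 8. paxillus_10215 averaged 10.12 ± 0.41 (SD, n = 3) at day 6 and 10.04 ± 0.16 at day 8, and paxillus_9708 averaged 10.40 ± 0.27 and 10.21 ± 0.04. For both, the steps from day 2 to 6 and from day 6 to 8 did not pass the limma threshold (adjusted p = 0.952 and 0.756 for paxillus_10215, 0.983 and 0.256 for paxillus_9708). A small change by day 8 was thus neither shown nor excluded.

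paxillus_9783 and paxillus_383 were the firmest falls. The first of them, paxillus_9783, read 13.00, 12.78 and 12.91 on the day 2 arrays and 6.94, 7.48 and 6.90 on the day 13 arrays. All 3 day 13 values lay at least 5.29 below the day 2 values and still above the control. The interval of its difference ran from -6.43 to -5.15. It had already fallen by day 6 (step of -2.00, limma adjusted p = 2.54e-04), the step to day 8 was -0.81 (limma adjusted p = 0.0602), and the step to day 13 was -2.98 (limma adjusted p = 4.94e-06). paxillus_383 read 14.00, 13.90 and 14.12 at day 2 and 10.00, 9.32 and 9.19 at day 13, with an interval of -4.90 to -4.11 for its difference. Its fall passed the limma threshold at every step, with steps of -0.75, -0.75 and -3.01 (adjusted p = 5.22e-03, 0.0113 and 1.62e-07). In both pairs the groups of arrays were far apart. The day means of both falls went down at every step, though the middle step of paxillus_9783 was not called. The only called step of either rise came after day 8.

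Few transcripts moved between the background and a clear signal. On all 3 arrays of both days, 11401 sequences (93.3% of all) stood at least 4-fold above the control of the same array. Of the 1904 sequences called and at least 2-fold changed, 97.4% were among them, 890 higher and 964 lower, a share near that of all sequences. At the control level on both days, that is within 2-fold of it or below on all 6 arrays, were 562 sequences, of which 69 were called and 0 of them at least 2-fold. Only 2 sequences went from the control level on all 3 day 2 arrays to at least 4-fold above it on all 3 day 13 arrays, and 0 went the other way. Both are named because they are so few, after their values were seen. paxillus_4597 read 3.92, 4.11 and 4.32 at day 2, below the control, and 7.11, 7.74 and 6.81 at day 13. The difference of the deposited values was 3.10 ± 0.23 (SE, limma adjusted p = 1.42e-07). With the control in place of the lower day 2 readings it was an estimated 5.93-fold higher, which was not tested. It averaged 5.28 ± 0.42 (SD, n = 3) at day 6 and 6.61 ± 0.03 at day 8. paxillus_11006 read 5.37, 4.83 and 5.25 at day 2, slightly above the control, and 7.64, 6.93 and 7.04 at day 13. Its difference was 2.05 ± 0.19 (SE), an estimate of 4.15-fold (limma adjusted p = 1.21e-06), and it had averaged 7.38 ± 0.08 at day 6. The first thus climbed over the whole course and the second was near its end level by day 6.

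Calls were spread over the whole range of signal. The sequences were put into 4 bins of equal size by their mean over the 12 arrays. In the dimmest bin, up to 10.14, 952 were called higher and 760 lower, together 56.1%. The other bins gave 69.2%, 68.6% and 69.5%, the last of them the brightest, with 1096 higher and 1026 lower. The share changed at least 2-fold ran from 17.2% in the dimmest bin through 16.9% and 14.8% to 13.5% in the brightest. That brightest bin held 175 rises and 236 falls of this size. The spread between arrays moved with the level too: the median SD fell from 0.174 in the dimmest to 0.0904 in the brightest bin at day 2, and from 0.182 to 0.102 at day 13. The part of this spread in the shares was not tested.

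The 2 end days were also the most variable. The median SD over 3 arrays was 0.129 at day 2 and 0.139 at day 13, against 0.0790 at day 6 and 0.0771 at day 8. An SD of at least 0.5 was found in 262 sequences (2.15%) at day 2 and 144 (1.18%) at day 13, against 37 and 21 at days 6 and 8. Sequences that were at least 2-fold higher at day 13 had a median SD of 0.174 at day 2 and 0.151 at day 13, and those at least 2-fold lower had 0.114 and 0.177. Each of these groups therefore varied more on the day of its lower level. The fit used 1 spread per sequence for all 4 days. The less variable days 6 and 8 thus also shaped the intervals and adjusted p of the end comparison. How far the unequal spread moved these was not tested.

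The 917 rises and 987 falls of at least 2-fold had moved in part by day 6 and again by day 8. These sequences were chosen by the end days, the comparisons of days 6, 8 and 13 share the day 2 arrays, and the path is given as a description. Relative to the day 2 mean, the median of the falls stood at -0.49, -0.56 and -0.54 on the 3 arrays of day 6. It stood at -0.77, -0.81 and -0.92 on those of day 8, and at -1.53, -1.40 and -1.49 on those of day 13. The day 13 arrays lay below all day 8 arrays, and these below all day 6 arrays. For the rises the corresponding medians were 0.30, 0.43 and 0.37 for day 6, then 0.61, 0.60 and 0.75 for day 8, and finally 1.36, 1.33 and 1.38 for day 13, again without overlap between days. The median over all sequences stayed between -0.03 and 0.04 on every array. Day 13 array 2, the one closest to day 2 in its correlations, had the smallest median change in both sets.

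**Figure D2:**
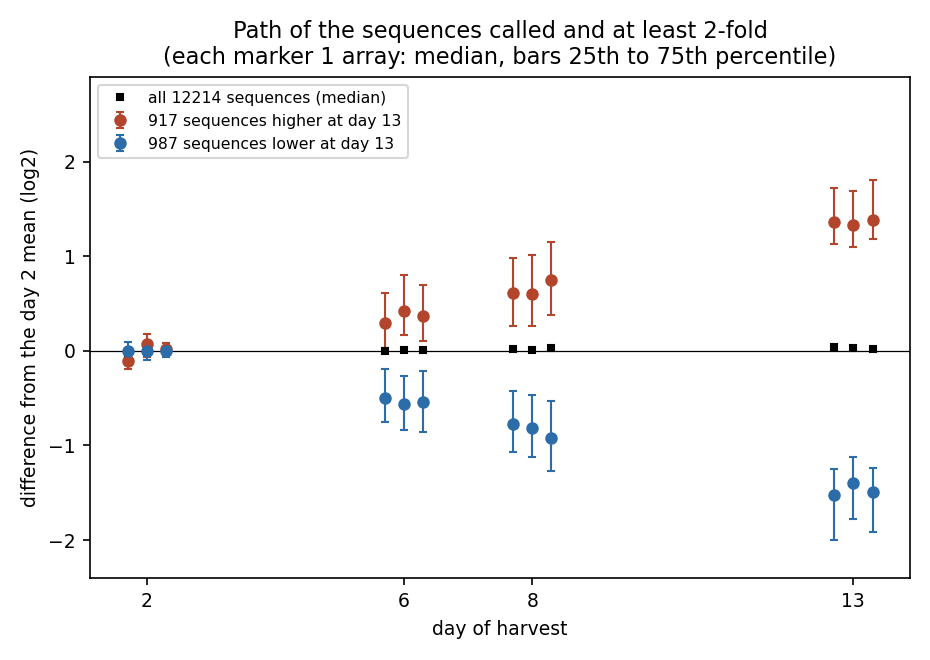
Difference from the day 2 mean (log2, vertical axis) by day of harvest (horizontal axis) for the sequences called and at least 2-fold changed at day 13; each marker is 1 array, at the median over 917 higher or 987 lower sequences, with bars from the 25th to the 75th percentile, and squares are the median of all sequences. The medians move away from 0 at each harvest, to between 1.33 and 1.38 for the rises and between -1.53 and -1.40 for the falls at day 13.

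The harvests are 4, 2 and 5 days apart, so the steps were also set per day. The median step of the falls was -0.54 over the first interval, -0.28 over the middle and -0.73 over the last, which is -0.13, -0.14 and -0.15 per day. By these medians the falls lost about the same amount per day throughout. For the rises the steps were 0.36, 0.26 and 0.75, or 0.09, 0.13 and 0.15 per day. The first and last steps contain the arrays that chose these sequences, and the middle step does not. In 732 of the 987 falls (74.2%) the day means fell at every step, and in 487 of the 917 rises (53.1%) they rose at every step. With the labels of days 6 and 8 exchanged, as the conflicting positions in the descriptions of these samples would allow, the counts were 75 and 126. Day 8 had already passed the day 13 mean in 108 of the rises and 44 of the falls, and it lay on the opposite side of day 2 in 114 and 60.

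Each change was classed by the interval that held its largest step. The last interval held it in 549 rises (59.9%) and 538 falls (54.5%), the first in 247 (26.9%) and 367 (37.2%), and the middle in 121 (13.2%) and 82 (8.31%). The classes were sorted by these same steps, so their differing courses follow in large part from the sorting. Rises of the first class had a median difference from day 2 that went through 0.95 and 1.16 on days 6 and 8 to 1.27 on day 13. Rises of the last class stood at 0.19, 0.39 and 1.42 on the same days. Falls of the first class stood at -0.84, -1.11 and -1.47, and those of the last class at -0.32, -0.52 and -1.48. The middle class was the least secure: without day 8 array 3 it held 78 rises in place of 121. The last interval is also the longest and the middle the shortest. With steps taken per day, the first, middle and last classes held 187, 342 and 388 rises. The falls then split nearly evenly, into 322, 331 and 334.

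The larger the rise, the more often its largest step came last; the falls showed no such order. Among rises of 2- to 4-fold the last interval held the largest step in 436 of 771 (56.5%), among those of 4- to 8-fold in 89 of 120 (74.2%), and among those of 8-fold or more in 24 of 26 (92.3%). Among falls the shares were 431 of 794 (54.3%), 94 of 169 (55.6%) and 13 of 24 (54.2%). The 26 largest rises had a median difference from day 2 that went through 0.60 and 0.20 on days 6 and 8 to 3.51 on day 13. The last interval alone gave at least 90% of the whole change in 15 of these 26 and in 0 of the 24 largest falls. The largest falls went through -1.01 and -1.89 to -3.43 on the same days, and 20 of 24 fell at every step, against 4 of 26 rises that rose at every step. The difference between rises and falls was not tested, since sequences are not independent replicates. With runs of consecutive, similar sequences averaged, the counts were 21 of 23 rises and 13 of 24 falls. With steps taken per day, they were 21 of 26 rises and 9 of 24 falls.

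**Figure D3:**
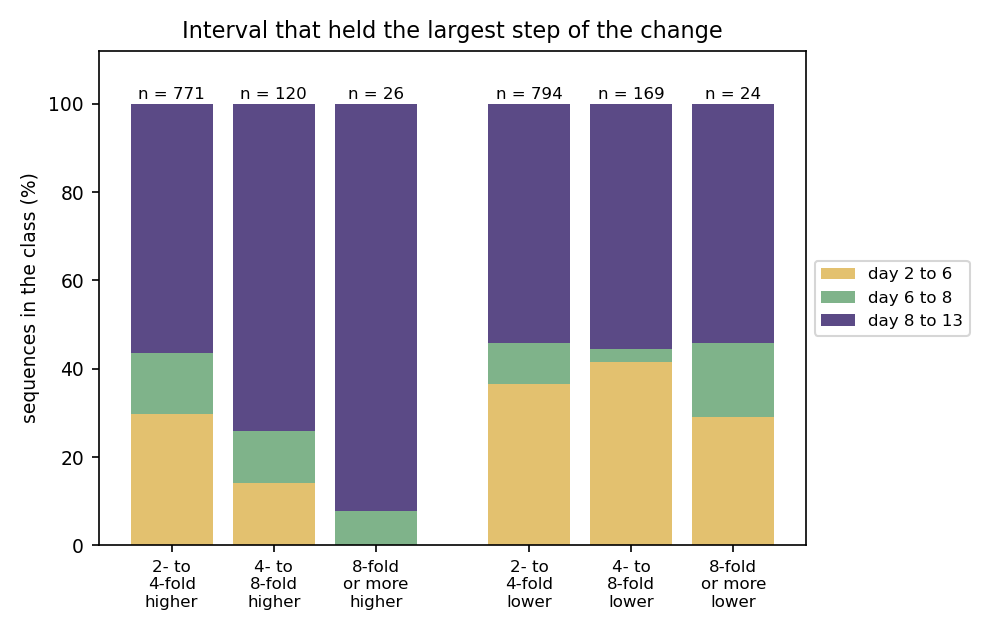
Share of sequences (%, vertical axis) whose largest step fell in each interval between harvests, for called sequences grouped by the size and direction of the change from day 2 to day 13, with the number of sequences above each bar. The last interval takes 56.5%, 74.2% and 92.3% of the rises as they grow in size, and 54.3%, 55.6% and 54.2% of the falls.

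A sequence of each class shows its course on the single arrays, the firmest rise and fall not yet given. In the first class, paxillus_9518 read 10.42, 10.08 and 10.09 at day 2, 12.28, 11.85 and 12.33 after 4 more days, and 12.74, 12.78 and 12.69 on the day 13 arrays. No array of day 6 or day 13 overlapped with day 2. Its difference across the span was 2.54 ± 0.13 (SE, limma adjusted p = 8.97e-09), of which 1.95 was reached by day 6, and the last step added 0.43 (limma adjusted p = 0.0128). paxillus_13188 read 10.31, 9.38 and 8.52 at day 2, 6.75, 6.48 and 6.61 on the day 6 arrays, and 3.86, 5.21 and 6.23 on the day 13 arrays. Both ends were widely spread, and the first day 13 array lay below the control of 4.57 on that array. On 2 of the 3 day 13 arrays it was within 2-fold of the control or below it. With the control in place of the lower reading, the difference was -4.07, an estimate of 16.7-fold lower. The values as deposited gave -4.30 ± 0.50 (SE), with an interval of -5.39 to -3.21 (limma adjusted p = 8.69e-06). Without day 13 array 1 the deposited values gave -3.68, and with array weights -3.65. The sequence rests on 2 probe pairs where nearly all others have 10.

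In the middle class, paxillus_7280 read 9.73, 9.36 and 9.82 at day 2 and 10.25, 10.51 and 10.22 at day 6. It then read 12.03, 11.86 and 12.35 at day 8 and 13.39, 13.73 and 13.56 at day 13. The 4 days formed 4 separate levels, each above the one before. The difference across the span was 3.92 ± 0.15 (SE), or 15.1-fold (limma adjusted p = 2.69e-09). paxillus_8111 read 13.85, 13.70 and 13.85 at day 2 and stood at 13.86 ± 0.14 (SD, n = 3) at day 6. It read 12.15, 11.96 and 11.25 at day 8 and 10.32, 10.06 and 10.56 at day 13. Its step to day 6 was 0.05 ± 0.19 (SE, limma adjusted p = 0.839). It fell in both later steps, to 11.2-fold below day 2 (limma adjusted p = 1.65e-08).

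In the last class, paxillus_4062 read 9.59, 9.96 and 9.77 at day 2 and 14.59, 14.00 and 13.78 at day 13, with means of 10.56 ± 0.71 (SD, n = 3) at day 6 and 9.97 ± 0.22 at day 8. One of its day 6 arrays, at 11.37, stood apart from the other two, at 10.06 and 10.26. It belongs to a run of 4 consecutive numbers with similar values. paxillus_984 read 13.80, 14.22 and 14.30 at day 2 and 10.01, 9.95 and 9.79 at day 13, 18.3-fold lower (limma adjusted p = 2.83e-09). It averaged 13.07 ± 0.32 at day 6 and 12.43 ± 0.21 at day 8, and it fell at every step past the limma threshold (adjusted p = 4.63e-04, 0.0163 and 3.29e-07). The steps of paxillus_4062 were 0.79 to day 6, which passed the limma threshold (adjusted p = 0.0431), -0.59 to day 8 (adjusted p = 0.157) and 4.15 to day 13 (adjusted p = 4.69e-07).

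**Figure D4:**
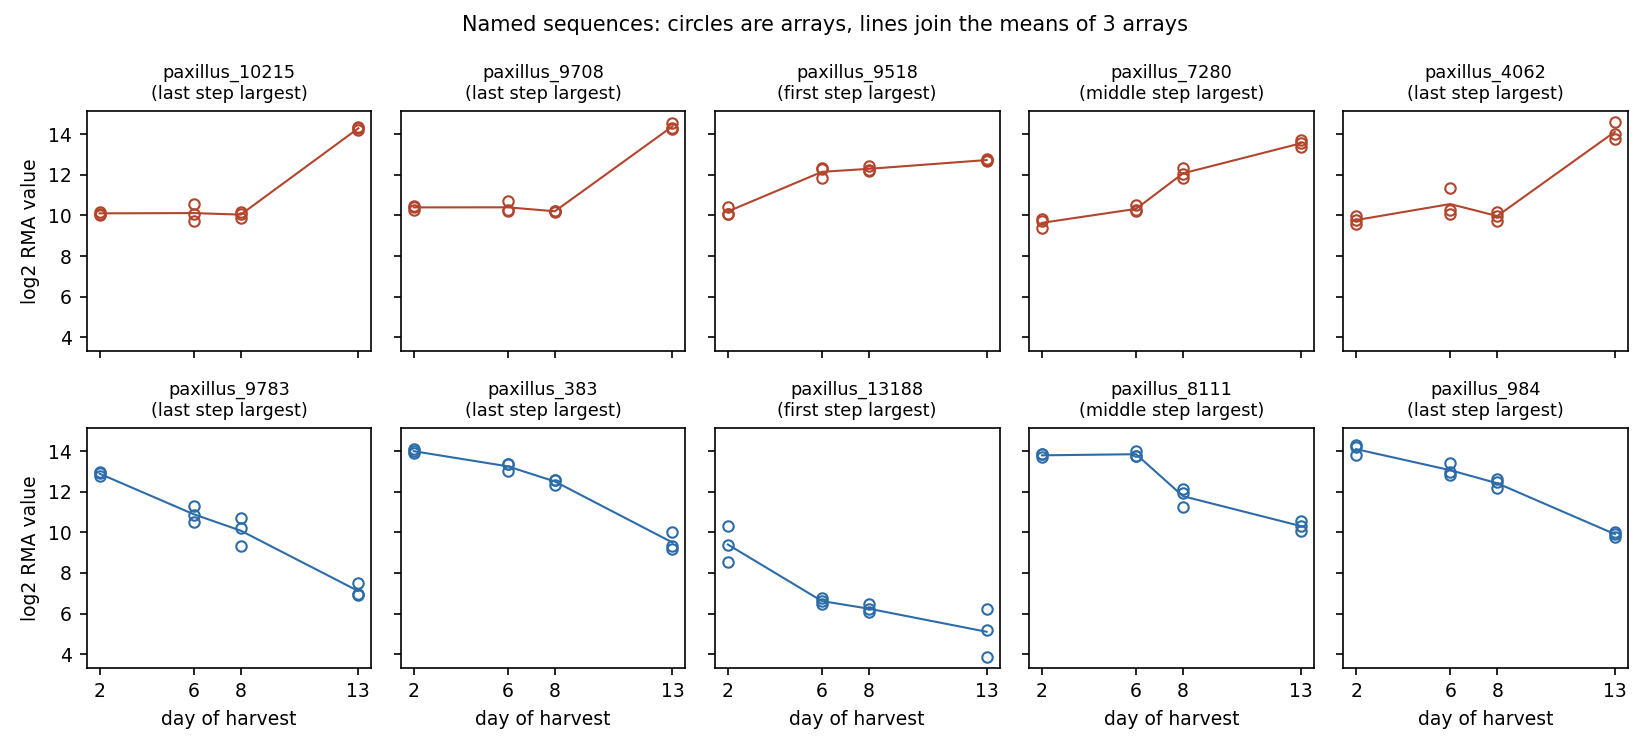
Log2 RMA values (vertical axis) of the 10 sequences described, by day of harvest (horizontal axis), rises in the upper row and falls in the lower; circles are single arrays and lines join the means of 3 arrays. paxillus_10215 and paxillus_9708 stay near 10 until day 8 and exceed 14 at day 13, while paxillus_9783 descends from 12.90 at day 2 through 10.90 and 10.09 to 7.11.

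A comparison of the ends alone leaves out sequences that moved and then turned back. Of the 4174 sequences not called across the span, 886 (21.2%) had called and opposite first and last steps (limma, adjusted p under 0.05 for each). Among all 12214 sequences, called across the span or not, 1924 had such steps. Choosing sequences without a called net change itself favours opposite steps, so the share of 21.2% was not tested. The first step, day 6 against day 2, and the last, day 13 against day 8, share no array, and called 46.1% and 54.1% of all sequences. In 479 of the 886 the level had risen by day 6 and fell after day 8, and their median difference from day 2 ran through 0.45 and 0.57 on the middle days to 0.03 at day 13. In the other 407 it had fallen first, through -0.40 and -0.47 to 0.00. Both steps were at least 2-fold in 17 of the former and 3 of the latter. For 199 and 231 of them the 95% interval placed day 13 within 0.32 of day 2 on the log2 scale. For the rest a return to the day 2 level was not shown.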

How the data were processed

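RNA of 12 mycelium samples, 3 for each of days 2, 6, 8 and 13, was hybridised to the subarrays of 1 NimbleGen 12-plex chip with Cy3. The deposited log2 values come from the authors' RMA step, applied array-wide, per the submitters' processing notes and the file headers. The RMA version was not given in the sources used here. That they are on a log2 scale was inferred from their span of 2.81 to 15.57. The series-wide table holds the same values in all 146568 cells. Days were taken from the sample titles. The descriptions of the day 6 and day 8 samples carry conflicting positions, which does not touch the comparison of the ends.

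From these values, 1 mean per day was fitted to all 12 arrays with lmFit, contrasts.fit, eBayes and treat of limma 3.58.1 under R 4.3.3. The residual degrees of freedom were 8, and the prior added 4.23. P-values were adjusted over 12214 sequences per contrast. The median standard error of a difference was 0.0999 on the log2 scale; the number of arrays limits the precision. No filter on dim sequences was applied. Named sequences are the 2 rises and 2 falls with the 95% bound farthest from 0 among called sequences without overlap of arrays, passing over numbers within 5 of one taken, and 1 further rise and fall for each interval of largest step. The members, classes and rules were chosen with earlier results of these data known. Alternatives tried were the series-wide table, centring or quantile normalization of the arrays, a filter on dim sequences, eBayes with trend and robust settings, weights per array, a replicate block, a fit of the end arrays alone, a stricter threshold, single left-out arrays, averaged runs (consecutive numbers with r of at least 0.9 and levels within 0.5), exchanged middle days and other class limits. The fit was tested on simulated data. The lists of autophagy, protease, nitrogen, cell wall and ribosome genes could not be matched to the numbers, so none has a result.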

Additional observations from a re-analysis of the deposited data

Results flagged for a closer look

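The 886 sequences that moved and turned back, and were not called across the span, drew attention because their first and last steps were called in opposite directions. Of these, 479 rose by day 6 and fell after day 8, and 407 fell by day 6 and rose after day 8. Over all sequences, called across the span or not, 1924 had called and opposite first and last steps. The difference between the steps was called in all 1924, which follows from the choice of opposite called steps and adds no support. Without day 6 array 3 the 479 and 407 became 374 and 330, and without day 13 array 1 the former became 547. Groups of 3 arrays are too small to single out an array far from the others.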

How the results depend on the processing

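Other settings gave 279 counts, of which 255 moved by no more than 1.5 times, and single left-out arrays gave 300, of which 298 did; all 230 values of the 10 span differences kept direction and call, though paxillus_13188 moved from -4.30 to between -4.87 and -3.65. These include values that could not move, and the 10 were chosen for their size on these arrays. The interval bound of 0.32 held 978 sequences in a fit of only the 6 arrays, which has fewer degrees of freedom and leaves out the less variable days 6 and 8; which of these moved it was not tested. At 1.5-fold the bound held 5491. At a threshold of 0.01 the sequences that rose by day 6 and fell after day 8, without a call across the span, numbered 317. With days 6 and 8 exchanged, the middle class held 11 rises and 1 fall, and 126 rises and 75 falls moved one way at every step. By construction the classes grew with no minimum fold, to 1338, 902 and 1961 rises and 1515, 531 and 1793 falls (first, middle, last), and shrank at 4-fold, to 17, 16 and 113 rises and 77, 9 and 107 falls. Per day of the interval, the middle class held 342 rises and 331 falls and the last 334 falls. At 8-fold above the control, 0 sequences came up from it. Leaving out both day 13 array 2 and day 2 array 1, chosen after seeing the data, left 33 rises beyond 4-fold; the cause was not tested. The counts at 8-fold or more and of changes in one direction at every step were also added after seeing the data.

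Leaving out 1 array gave 3959 to 4137 rises and 3646 to 3810 falls, 886 to 981 and 968 to 1045 of them at least 2-fold. It gave 1316 to 1665 sequences within the bound, 24 to 32 rises and 21 to 27 falls of 8-fold or more, and 0 to 1 sequences falling to the control level (the 1 without day 13 array 3). The middle class held 78 to 148 rises, with the 78 without day 8 array 3.

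The labels state 3 biological replicates per day and no block, so the numbers were not taken as pairs. Same-numbered arrays of days 2 and 13 deviated from their day means with r = 0.280, 0.633 and -0.251. The highest r with another number was 0.404, -0.267 and 0.151, so only number 2 correlated best with its own. These mixed values neither show nor exclude a pairing. With the replicate number as a block, 4183 sequences were higher and 3802 lower, and no call of a named sequence changed.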
